A study of Oreochromis niloticus with 14 samples.

Results

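The genes mdh1b (ENSONIG00000012210), unc93a (ENSONIG00000015729) and antxr2b (ENSONIG00000004061) of the Nile tilapia were described here because males injected with benzo(a)pyrene (BaP) had more of their transcripts in liver and less in testis than control males. They are 3 of the 17455 genes listed in the liver or the testis, and 3 of the 12377 genes listed in both. They were picked by these same liver and testis differences, so the differences are given as a description with their errors. Calls of the 3 genes in fits over all genes are given below, but they are no test of these differences. The third gene is named antxr2b in the gene list of the study, which is the only source that paired names with these identifiers.

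RNA-Seq of poly(A) RNA was carried out on 4 control and 4 BaP livers and on 3 control and 3 BaP testes of adult male Oreochromis niloticus, all 1 year of age. BaP fish received 5 intraperitoneal injections of 3 mg/kg, one every 6 days, and control fish received the DMSO and corn oil carrier on the same schedule. Fish were sampled on day 26. Each treatment was held in 2 aquaria of 12 fish, so treatment and aquarium cannot be told apart, and nothing in the labels says which aquarium a fish came from. BaP is a polycyclic aromatic hydrocarbon that binds the aryl hydrocarbon receptor and is metabolized by cytochrome P450 enzymes of the CYP1 family.

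The libraries held 12485109 to 42836246 reads on genes in liver and 26694344 to 30347667 in testis. At these depths 3 reads, taken as the lowest level that can be shown, corresponded to 0.0646 to 0.27 normalized CPM in liver and 0.0972 to 0.111 in testis, and these floors cover counting error only. Normalized CPM are reads scaled to a common library size by a factor per library, and they are not corrected for gene length. The 33 genes of a liver marker list summed to 121665 to 233257 normalized CPM in the livers, and the 26 of them listed in testis summed to 800 to 3160 there. The 8 genes of a testis marker list summed to 62.5 to 199 in the livers, and the 7 of them listed in testis summed to 330 to 391 there. The largest control liver means in this list, 73.9 and 42.2, were those of 2 genes named TXNDC8. The first had 5.48 in control testes and the second was not listed in testis. In whole tissue, fewer cells of a type and less RNA per cell cannot be told apart.

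The proteins of these 3 genes have unrelated roles. MDH1B is a paralog of the cytosolic malate dehydrogenase, the enzyme that interconverts malate and oxaloacetate and moves reducing equivalents between cytosol and mitochondria, and in mammals its transcript is known from testis and from cells with motile cilia. UNC93A belongs to the unc-93 family of multi-pass membrane proteins, whose founding member in Caenorhabditis elegans regulates a potassium channel and whose mammalian relative UNC93B1 carries Toll-like receptors to endosomes. ANTXR2, also called CMG2, is a cell surface receptor with a von Willebrand factor type A domain that binds collagen and laminin of the basement membrane and was named for its binding of anthrax toxin, and antxr2b is a fish copy of it.

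The level of mdh1b was low in control livers and high in testis. The 4 control livers had 1.08, 1.12, 1.94 and 0.474 normalized CPM for replicates 1 to 4, which rested on 22 to 37 reads each. The 4 BaP livers had 5.80, 5.97, 5.57 and 6.65 normalized CPM for replicates 1 to 4, which rested on 62 to 215 reads. Every BaP liver was above every control liver, and the lowest BaP liver was 2.88 times the highest control liver. The mean was 1.15 ± 0.60 normalized CPM in control and 6.00 ± 0.46 in BaP (SD, n = 4 each), a ratio of 5.21. On the log2(normalized CPM + 1) scale the difference was 1.74 (SE 0.24), a smaller number than the log2 of that ratio because the added 1 is close to the control level. The 4 BaP livers were closely alike, with a coefficient of variation of 7.75%, against 9.50% from read counting alone. In the 4 control livers the coefficient of variation was 52.2%, against 19.1% from counting.

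In testis, mdh1b was far more abundant. The 3 control testes had 223, 134 and 159 normalized CPM for replicates 1 to 3, and the 3 BaP testes had 97.9, 162 and 106, on 2666 to 6033 reads each. Replicates 1 and 3 of BaP lay below every control testis, whereas BaP replicate 2 lay between control replicates 3 and 1, so the groups overlapped. The means were 172 ± 45.7 in control and 122 ± 35.1 in BaP (SD, n = 3 each), a level 1.41 times higher in control. The difference on the log2 scale was −0.50 (SE 0.29). Counting gave a coefficient of variation of 1.45% in control and 1.67% in BaP, against 26.6% and 28.8% observed, so the spread between the testes was far above counting error.

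For unc93a the control livers were almost the same, at 7.41, 7.66, 7.59 and 8.05 normalized CPM for replicates 1 to 4. The BaP livers had 19.0, 18.4, 30.1 and 21.4. The groups did not overlap, the lowest BaP liver was 2.29 times the highest control liver, and BaP replicate 3 stood above the other BaP livers. The mean was 7.68 ± 0.27 in control and 22.2 ± 5.40 in BaP (SD, n = 4 each), a ratio of 2.90, and the log2 difference was 1.39 (SE 0.22). The coefficient of variation of the control livers was 3.51%, below the 6.91% from counting, while that of the BaP livers was 24.3% against 5.16% from counting.

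In testis unc93a was near 1 to 3 normalized CPM. The control testes had 1.62, 3.40 and 1.61 normalized CPM for replicates 1 to 3 and the BaP testes had 0.881, 2.05 and 1.13, on 24 to 98 reads each. BaP replicates 1 and 3 were below all control testes, and BaP replicate 2 was above control replicates 1 and 3, which had almost equal values. The means were 2.21 ± 1.03 (SD, n = 3) and 1.35 ± 0.61 (SD, n = 3), a level 1.63 times higher in control, with a log2 difference of −0.43 (SE 0.30). The added 1 is close to these levels and shrinks this difference, which was −0.66 (SE 0.42) with 0.1 added instead. The mean of the control testes was set largely by replicate 2, and without it the log2 difference was −0.18.

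The level of antxr2b had the narrowest gap between the liver groups of the 3 genes. Control livers had 24.5, 22.5, 12.2 and 14.3 normalized CPM for replicates 1 to 4 and BaP livers had 33.0, 58.6, 49.0 and 45.1. The groups did not overlap, but the lowest BaP liver, replicate 1, was only 1.35 times the highest control liver. The means were 18.4 ± 6.04 in control and 46.4 ± 10.6 in BaP (SD, n = 4 each), a ratio of 2.53, and the log2 difference was 1.32 (SE 0.29). The coefficients of variation were 32.9% in control and 22.8% in BaP, against 4.47% and 3.38% from counting.

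The control testes had 5.32, 4.34 and 10.9 normalized CPM of antxr2b for replicates 1 to 3, and the BaP testes had 2.28, 4.92 and 3.56, on 62 to 297 reads each. BaP replicates 1 and 3 were below all control testes and BaP replicate 2 lay between control replicates 2 and 1. The means were 6.84 ± 3.53 (SD, n = 3) and 3.59 ± 1.32 (SD, n = 3), a level 1.91 times higher in control, with a log2 difference of −0.73 (SE 0.37). Control replicate 3 held the highest value, and without it the log2 difference was −0.38.

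**Figure D1:**
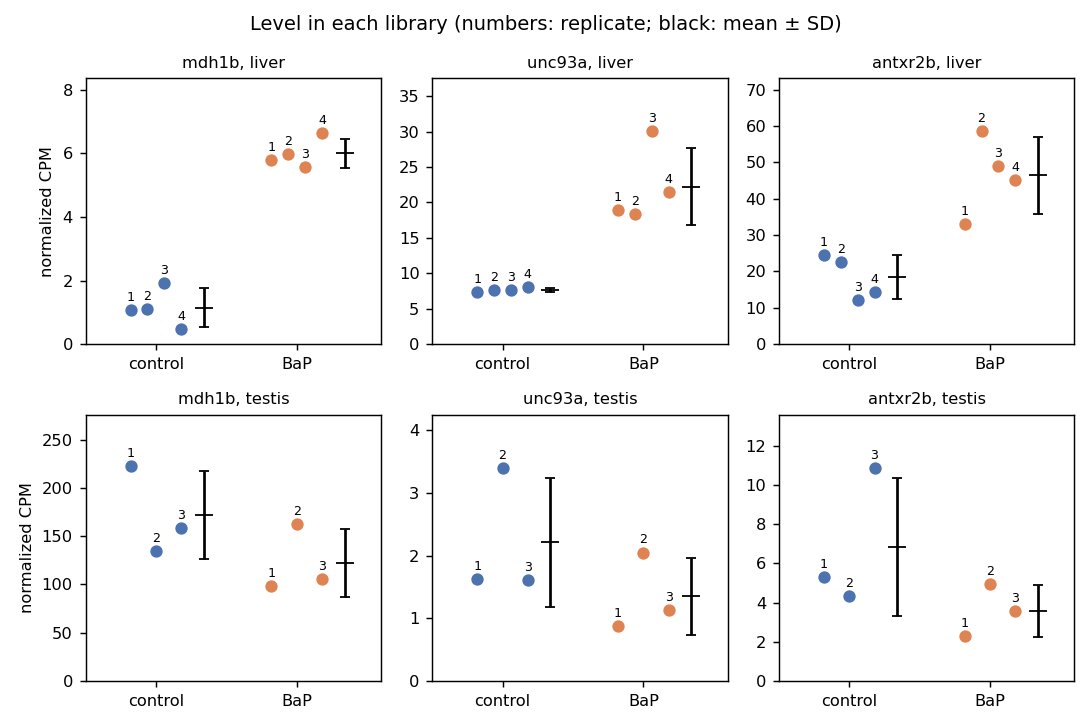
Normalized CPM of mdh1b, unc93a and antxr2b (columns) in each liver (upper row) and testis (lower row) of the control and BaP groups. Points are single libraries numbered by replicate, and the black mark beside each group is the mean with its SD. In liver the 4 BaP points of each gene lie above the 4 control points, and in testis BaP replicate 2 lies among the control points of each gene.

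The 3 genes shared one arrangement in testis. All 3 BaP testes were below the control mean for each gene, 2 of the 3 were below the lowest control testis, and the highest BaP testis was replicate 2 each time. The highest control testis differed between the genes, replicate 1 for mdh1b, replicate 2 for unc93a and replicate 3 for antxr2b. Leaving out 1 fish at a time moved the testis difference between −0.72 and −0.29 for mdh1b, between −0.64 and −0.18 for unc93a and between −0.96 and −0.38 for antxr2b. The values nearest 0 came without control replicate 1 for mdh1b, without control replicate 2 for unc93a and without control replicate 3 for antxr2b. In liver the same procedure gave 1.57 to 1.91 for mdh1b, 1.25 to 1.47 for unc93a and 1.15 to 1.47 for antxr2b. The sign was kept in each of these fits.

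**Figure D2:**
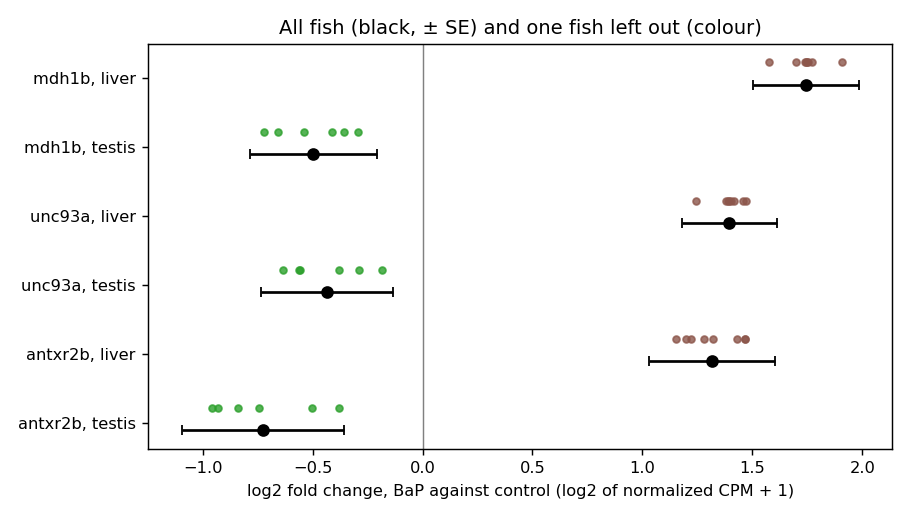
Log2 difference of BaP against control for mdh1b, unc93a and antxr2b in liver and testis, on log2(normalized CPM + 1). Black points with bars are the difference over all fish with its SE, and coloured points above them are the same difference with 1 fish left out, 8 in liver and 6 in testis. Liver points lie between 1.15 and 1.91 and testis points between −0.96 and −0.18.

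Against all genes, the liver differences were far out and the testis differences less so. Of 12902 liver genes, 50 had a larger positive log2 difference than mdh1b, 125 a larger one than unc93a and 148 a larger one than antxr2b. Of 16930 testis genes, 1086 had a more negative one than mdh1b, 1436 than unc93a and 416 than antxr2b. These ranks and the later counts of testis differences use log2(normalized CPM + 1), which shrinks differences at levels near 1, as for unc93a in testis. The study called a gene altered at an unadjusted p under 0.05 with a fold over 1.5. In the limma fit over all genes, the 3 genes met these limits in liver, where 5.93% of genes met them on the higher side and 6.07% on the lower side. None of the 3 met them in testis, where 1.18% of genes met them on the higher side and 0.998% on the lower side. At a Benjamini-Hochberg adjusted p under 0.05, mdh1b alone of the 3 was called in liver, where 0.0155% of genes were called higher, and without 1 fish at a time it kept this call in 1 of 8 fits, the one without control replicate 3. That call was also lost by the quasi-likelihood test, while the exact test, which the study used, and DESeq2 called all 3 genes in liver. Of the 12902 liver genes, the exact test called 67 and DESeq2 172 higher at that level, against 2 by limma. In testis 0 genes were called lower at an adjusted p under 0.05 by limma, with 426 genes of either direction at an unadjusted p under 0.05, against 0 by edgeR's quasi-likelihood test, 11 by edgeR's exact test and 20 by DESeq2. Liver groups that did not overlap, with BaP higher, made up 4.05% of liver genes, and testis groups that did not overlap, with BaP lower, made up 2.84% of testis genes. Nothing is read from these counts and calls for the 3 genes, nor for a ranking among them, since the same comparisons chose them.

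Opposite signs in the liver and testis were common at any size. Among the 12377 genes listed in both, 3193 (25.8%) combined a positive difference in liver with a negative one in testis, and 2718 had the reverse. Of the 706 genes that met the study's limits as higher in liver, 390 (55.2%) had a negative testis difference, 126 (17.8%) one of over 1.2-fold and 22 (3.12%) one of over 1.5-fold. Only 1 of the 706 also met the limits as lower in testis, and it was none of the 3 genes. The testis differences of these 706 genes had a median of −0.04 and ran from −0.49 at the 5th percentile to 0.79 at the 95th. Within the 706, 35 had a testis difference at or below that of mdh1b, 46 at or below that of unc93a and 9 at or below that of antxr2b, each gene counted with itself. Liver groups apart with BaP higher together with all 3 BaP testes below the control mean, the arrangement of the 3 genes, was found in 108 of the 12377 (0.873%).

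**Figure D3:**
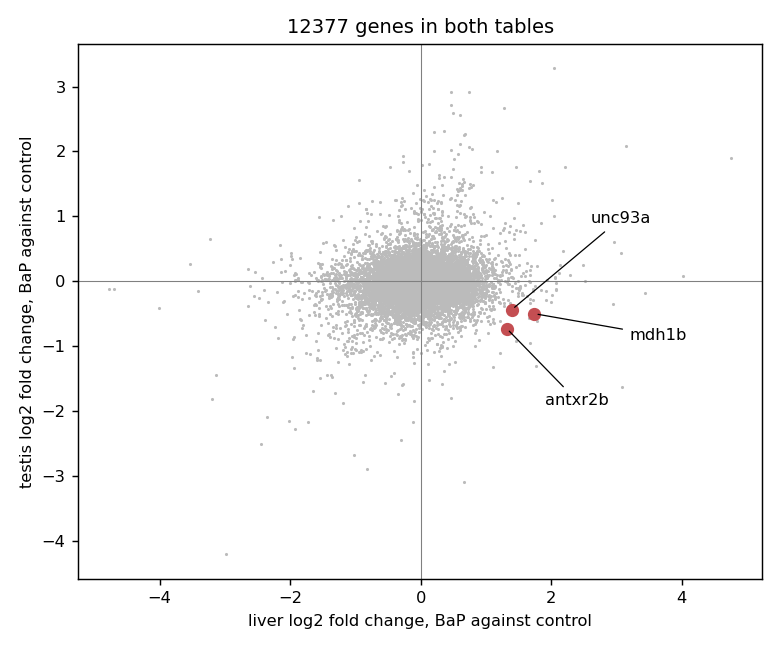
Log2 difference of BaP against control in liver (horizontal axis) and testis (vertical axis) for the 12377 genes in both tables, on log2(normalized CPM + 1). Each grey point is a gene, and the red points are mdh1b (1.74, −0.50), unc93a (1.39, −0.43) and antxr2b (1.32, −0.73), in the lower right part where 25.8% of the genes lie.

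The 3 genes were placed differently between the tissues, as read from tables that were normalized separately and so without a test. The control testes held 149 times the mdh1b level of the control livers, and the BaP testes 20.3 times that of the BaP livers. For unc93a the order was reversed, with a liver level 3.47 times that of testis in control and 16.4 times in BaP. Likewise antxr2b was 2.69 times higher in liver in control and 12.9 times in BaP. The change of these ratios with BaP follows from how the genes were chosen.

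The title numbers of 6 livers are also those of the 6 testes, which may stand for the same fish, although the labels do not say so. Among these, number 18 had the highest control level of mdh1b in both tissues, 1.94 normalized CPM in liver and 223 in testis. Number 20 had the highest control level of antxr2b in both, 24.5 in liver and 10.9 in testis. Number 14 had the highest BaP level of unc93a in both, 30.1 in liver and 2.05 in testis. For unc93a in control, number 19 was the highest testis, at 3.40, and had 7.66 in liver. The highest control liver was number 17, at 8.05, which has no testis library. This did not extend to all: the BaP testis highest for mdh1b, number 14 at 162, was paired with the BaP liver lowest for it, at 5.57. For antxr2b the highest BaP liver was number 15 at 58.6 and the highest BaP testis was number 14 at 4.92. With only 3 testes in each group, some such matches arise by chance.

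Deviations of the 3 genes between fish were compared over all libraries and within each tissue. Over the 14 libraries, the deviations from the group mean on the log2 scale had a Pearson r of −0.03 between mdh1b and unc93a, 0.14 between mdh1b and antxr2b and −0.03 between unc93a and antxr2b. Within the 8 livers r was between −0.18 and 0.03, and within the 6 testes between −0.07 and 0.38. The 3 BaP testes took the same order for all 3 genes, replicate 1 lowest and replicate 2 highest, whereas the control testes did not. These are descriptions, since the libraries of a tissue share their scaling.

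The genes whose deviations were most like those of each gene were looked up among 1319 genes with a name and a mean of at least 1 normalized CPM in each tissue. Names exist only for genes that the study listed as altered in these libraries. A BaP difference in the genes found here is therefore no separate result. Here and below the study's limits were applied to the limma fit, whereas the study used the edgeR exact test. A gene that the study listed can therefore miss them here. For mdh1b these were si:ch211-127i16.2 (r 0.86), zgc:103511 (r 0.81) and zdhhc4 (r 0.78), the last a member of the DHHC family of protein palmitoyltransferases. Among all 11944 genes at that level, named or not, 1, 11 and 23 had a higher r. Like mdh1b, zgc:103511 was low in liver and high in testis, with a mean of 1.54 normalized CPM in control and 3.69 in BaP livers, and 164 and 142 in testis. Its liver groups did not overlap and its log2 difference was 0.93, which met the study's limits, whereas that in testis was −0.17 and did not.

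For unc93a the closest named genes were a1cf (r 0.78), which encodes a cofactor of apolipoprotein B mRNA editing in mammals, SNX14 (r 0.70), a sorting nexin, and APOB (r 0.63), the main protein of very low density lipoprotein. Among all 11944 genes compared, named or not, 4, 26 and 74 had a higher r. Without testis BaP replicate 2, r was 0.73 for a1cf, 0.58 for SNX14 and 0.46 for APOB. The BaP differences of these 3 genes were unlike each other. In liver a1cf was 982 normalized CPM in control and 1663 in BaP with a log2 difference of 0.73, and it met the study's limits. SNX14 had a liver difference of −0.62 and APOB one of −0.12, and neither met them. In testis these 3 genes had differences of 0.05, 1.23 and 1.36, none of which met the limits.

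For antxr2b the closest named genes were slc2a12 (r 0.83), a sugar transporter, klhl24a (r 0.76), a kelch-family ubiquitin ligase adaptor, and vtnb (r 0.76), a vitronectin, which is a secreted adhesive protein of plasma and matrix. Among all 11944 genes compared, named or not, 9, 38 and 40 had a higher r. In liver the likeness of slc2a12 and klhl24a was in the variation between fish only, since both were lower in BaP livers, with log2 differences of −0.75 and −1.36 that met the limits. Their testis differences, −0.34 and −0.17, had the sign of that of antxr2b but did not meet the limits. In liver vtnb was higher with BaP, 1214 normalized CPM in control and 2047 in BaP, with a log2 difference of 0.77 that met the limits. In testis vtnb was 3.13 in control and 6.74 in BaP, with a log2 difference of 0.90 that met the limits as well, in the direction opposite to antxr2b. The likeness of each of these 9 genes was chosen from all values, so it has no test. None of their differences had an adjusted p under 0.05 in the limma fit over all genes.

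The other genes of each gene's surroundings were taken from lists by role. Names exist only for 1436 genes that the study listed as altered in these same libraries, so a count from such a list is not independent evidence of a direction. The lists hold few of their genes for the same reason. Over all genes, 5.93% met the study's limits as higher and 6.07% as lower in liver, and 1.18% and 0.998% in testis. The list counts below cannot be compared with these shares, since each gene found was itself listed as altered. That listing came from the study's exact test, and the limits here were applied to the limma fit. The study's list marks slc25a12, SNX14 and ITGA5 as 1 of several copies and gives APOB to more than one identifier, so reads may be split between copies.

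For malate and the citrate cycle, 11 genes other than mdh1b were found and are counted here, and only some of them are described. In liver 2 met the study's limits as higher and 5 as lower, with a median log2 difference of −0.69 against 0.02 over all liver genes. In testis 0 met them as higher and 1 as lower, with a median of −0.09 against −0.02 over all testis genes. The cytosolic malate dehydrogenase mdh1ab had the same arrangement as mdh1b in liver and a smaller difference in testis. It was 6.59 ± 2.10 normalized CPM in control livers and 15.0 ± 5.32 in BaP livers (SD, n = 4 each), without overlap, a log2 difference of 1.07 (SE 0.30) that met the limits. In testis it was 63.4 in control and 53.9 in BaP, a difference of −0.23 (SE 0.23) that did not.

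Among the other enzymes and carriers around malate, me1, slc25a11 and both slc25a12 genes were lower in BaP livers, and 1 of the 2 slc25a12 genes missed the limits. The malic enzyme me1, which turns malate into pyruvate with the gain of NADPH, was 401 ± 269 normalized CPM in control livers and 5.42 ± 2.19 in BaP livers (SD, n = 4 each). Its log2 difference was −4.71 (SE 1.39), past the limits, although the groups overlapped because of the spread in control. The oxoglutarate and malate carrier slc25a11 was 233 and 143 normalized CPM, without overlap, at −0.69 (SE 0.23). Of the 2 identifiers named slc25a12, an aspartate and glutamate carrier, ENSONIG00000008730 was 7.84 and 3.13 at −1.03 (SE 0.33), past the limits, and ENSONIG00000010386 was 181 and 73.5 at −1.05 (SE 0.67), which did not pass. In testis me1, slc25a11 and both slc25a12 did not meet the limits, with differences between −0.29 and −0.02.

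In the list of cilium and sperm flagellum genes, 10 were found. In liver 2 met the limits as higher and 3 as lower, with a median of −0.74, and in testis 0 of the 9 listed met them in either direction, with a median of −0.03. The sperm antigen spag1a, a factor of dynein arm assembly, was 0.269 ± 0.178 normalized CPM in control livers and 2.11 ± 0.81 in BaP livers (SD, n = 4 each), a log2 difference of 1.27 (SE 0.24) without overlap. It was not listed in testis, and its control mean was close to the level of 3 reads, 0.0646 to 0.157 in the control livers. The other gene past the limits as higher, dync2li1, a light intermediate chain of the cilium's dynein motor that was named after its values were seen, was 9.68 in control and 18.3 in BaP livers, at 0.86 (SE 0.31) with overlap, and 72.2 and 73.7 in testis. The genes morn3, ift172 and ttll5 were higher in testis than in liver, as mdh1b was, but their liver differences were negative. In liver morn3, a MORN-repeat gene, was 24.9 in control and 0.513 in BaP, at −3.42 (SE 0.91), past the limits, while it was 301 and 271 in testis. The intraflagellar transport gene ift172 was 12.1 in control and 3.76 in BaP livers, at −1.30 (SE 0.44), past the limits, and 757 and 819 in testis. The tubulin glutamylase ttll5 was 3.13 and 1.28 in liver, at −0.78 (SE 0.35), which did not meet the limits, and 225 and 199 in testis.

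For the unc-93 family with Toll-like receptors, their adaptors and two-pore potassium channels, 5 genes other than unc93a were found. In liver 0 met the limits as higher and 3 as lower, with a median of −0.85, and in testis 1 met them as higher and 0 as lower, with a median of 0.50. The potassium channel kcnk1b had the reverse signs of unc93a. It was 22.9 normalized CPM in control and 10.3 in BaP livers, at −1.0 (SE 0.32), and 7.69 in control and 12.8 in BaP testes, at 0.64 (SE 0.24), both past the limits. The flagellin receptor TLR5 was 59.1 and 30.2 in liver, at −0.85 (SE 0.30), past the limits, and −0.10 in testis, which was not. The endosomal receptor tlr9 was at 0.534 in control and 0.947 in BaP livers and 0.819 and 2.57 in testis, and met the limits in neither.

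For the anthrax toxin receptors and the matrix, 15 genes other than antxr2b were found. In liver 2 met the limits as higher and 2 as lower, with a median of −0.27, and in testis 3 met them as higher and 1 as lower, with a median of 0.58. The membrane-bound metalloproteinase mmp14a was 6.67 in control and 14.7 in BaP livers, at 1.04 (SE 0.26), past the limits and without overlap, and 5.65 and 6.92 in testis, at 0.58 (SE 0.59). The gelatinase mmp2 was 19.7 and 30.3 in liver, at 0.65 (SE 0.34), and 64.8 ± 49.9 and 200 ± 161 in testis (SD, n = 3 each), at 1.58 (SE 0.68), and met the limits in neither. The fibronectin receptor subunit ITGA5 was 2.10 and 1.03 in liver, at −0.48 (SE 0.39), which did not meet them, and 22.7 and 11.3 in testis, at −0.93 (SE 0.23), which met them without overlap. Thus ITGA5 was lower in BaP testis as antxr2b was, and mmp14a was higher in BaP liver as antxr2b was, and neither was both.

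**Figure D4:**
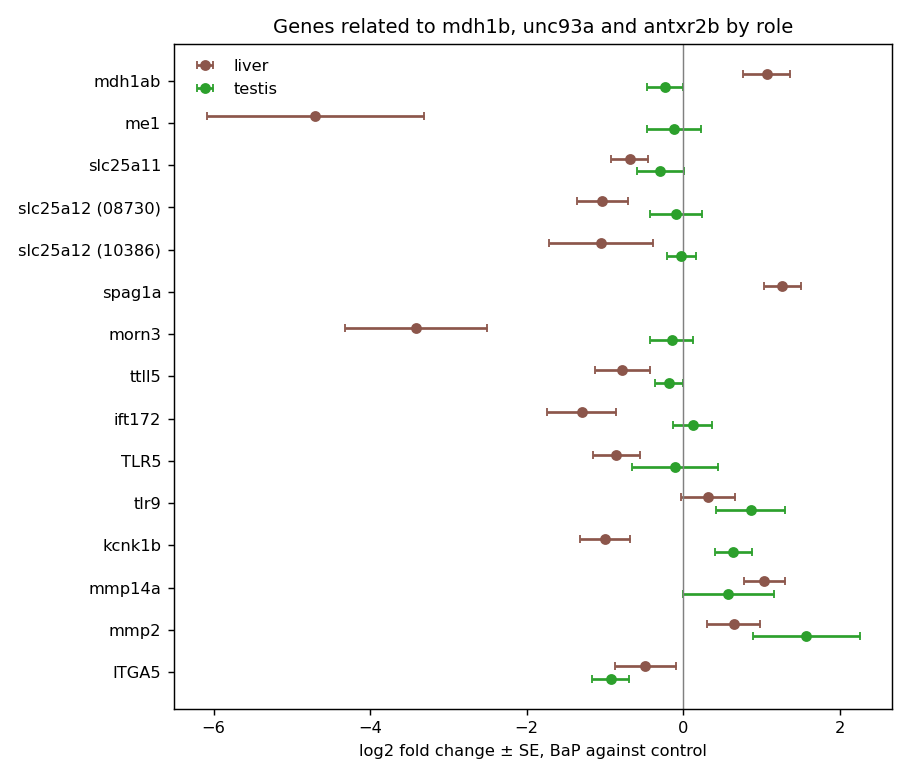
Log2 difference of BaP against control, with its SE, for the genes related by role to mdh1b, unc93a and antxr2b, in liver (brown) and testis (green), on log2(normalized CPM + 1). The 2 rows of slc25a12 are told apart by the last digits of their identifiers, and spag1a has no testis point because it was not listed there. In liver mdh1ab lies at 1.07 and me1 at −4.71, and kcnk1b lies at −1.0 in liver and 0.64 in testis.

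Among the targets of the aryl hydrocarbon receptor, cyp1a and cyp1b1 were found. In the 2 tissues they did not have the opposite signs of mdh1b, unc93a and antxr2b. In testis cyp1b1 was 2.32 ± 0.75 normalized CPM in control and 30.6 ± 0.25 in BaP (SD, n = 3 each), at 3.28 (SE 0.22), with an adjusted p of 0.0315 in the limma fit, and cyp1a was 4.41 and 14.4, at 1.76 (SE 0.55), past the study's limits. In liver cyp1b1 was 0.198 and 5.88, at 2.04 (SE 0.64), past the limits with overlap. Its control liver mean was close to the level of 3 reads, 0.0646 to 0.157 in the control livers. The liver level of cyp1a was 204 ± 127 and 314 ± 49.5 (SD, n = 4 each), at 0.92 (SE 0.52), which did not meet them. No other related gene named here had an adjusted p under 0.05 in either tissue, and in testis 0.00591% of genes were called higher at that level.

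Markers of the tissues and of other cell types were summed beside these levels. The shares of all genes past the limits were 5.93% higher and 6.07% lower in liver and 1.18% and 0.998% in testis. Markers were found only among genes that the study listed as altered. Their counts past the limits are therefore raised by that choice and cannot be compared with these shares. In liver, of 33 liver marker genes 14 met the limits as higher and 5 as lower, and their sum was 121665 to 167953 normalized CPM in control and 164076 to 233257 in BaP. In testis, of the 26 listed 6 met them as higher and 1 as lower, and 22 had a positive log2 difference, with a median of 1.34. Their sum in testis was 1410, 1181 and 3160 for control replicates 1 to 3 and 800, 1349 and 995 for BaP replicates 1 to 3. Most of it came from apoeb, at a mean of 917 in control and 321 in BaP testes, and MBL2, at 874 and 314, both with more in control testes than in control livers, which had 388 and 3.30. Without these 2 genes, left out after their values were seen, the other 24 summed to 109, 107 and 162 in control replicates 1 to 3 and 154, 911 and 172 in BaP replicates 1 to 3. BaP replicate 2 was thus far above the other testes in this sum, and it was the highest BaP testis for mdh1b, unc93a and antxr2b. Without it the testis differences were −0.72 (SE 0.30) for mdh1b, −0.64 (SE 0.33) for unc93a and −0.93 (SE 0.41) for antxr2b. Control replicate 3, the highest control testis for antxr2b, was the highest control testis in both sums. The part of these markers in the testis levels of antxr2b and unc93a, both higher in liver than in testis, was not tested. None of the liver markers was at 0 in any testis.

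Of 8 testis marker genes, 4 met the limits as higher and 2 as lower in liver. Their sum there was 88.0 to 199 in control and 62.5 to 178 in BaP, overlapping. The largest control means were those of the 2 genes named TXNDC8, 73.9 and 42.2, against 26.0 and 16.7 in BaP. In testis the first was 5.48 in control and 2.94 in BaP, and the second was not listed. TCP11X2 was also higher in control livers, at 25.6, than in control testes, at 17.2. The 4 past the limits as higher were kita, kitb, sox9a and TDRD15, at log2 differences of 1.46, 1.51, 0.82 and 1.66. The 2 past them as lower were TXNDC8 (ENSONIG00000012900), at −1.81, and TCP11X2, at −1.63. In testis 0 of 7 met the limits, and their sum was 330 to 391 in control and 352 to 381 in BaP. Red cell markers, 16 genes, summed to 245 to 3654 in control and 213 to 918 in BaP livers, where 12 met the limits as lower and 0 as higher, and to 177 to 840 and 196 to 267 in testis. Exocrine pancreas markers, 7 genes, summed to 9563 to 30290 in control and 25541 to 28883 in BaP livers, and to 4.47 to 8.92 in control and 12.2 to 207 in BaP testes, where 5 met the limits as higher. Immune cell markers, 18 genes, summed to 3236 to 7353 and 4266 to 7253 in liver and to 146 to 512 and 297 to 612 in testis. Most of the liver sum came from PRF1 alone, at a mean of 5135 in control and 5991 in BaP livers. In testis PRF1 was 0.971 in control and 4.92 in BaP. In every one of these lists each marker was above 0 in every library, except for 1 immune marker in each of control livers 1 and 2. The part of these cell types in the levels of the 3 genes was not tested.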

How the data were processed

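The 14 libraries took their tissue and treatment groups from the labels. The deposited values are normalized signal values, which the authors made from reads aligned with TopHat and which are in normalized CPM. Set against the recovered reads, this scaling amounts to a library size factor of 0.858 to 1.19. The aligner and edgeR versions, the genome build, the annotation, the counter, the strand setting and the filter on low counts are not given in the sources used here. Reads were recovered from the smallest step of each column, and 100% of 204796 values came out whole within 0.05 of a read. The main fit was limma 3.58.1 on log2(value + 1), 1 model per tissue over all genes, with Benjamini-Hochberg adjustment. The tables were normalized separately per tissue. Nothing says that control and BaP fish with the same replicate number are paired. The p-values set the group difference against the spread between fish and cannot separate treatment from aquarium.

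Alternatives were a pseudocount of 0.1, leaving out genes without 3 libraries at 1 or more, edgeR 4.0.16 quasi-likelihood and exact tests and DESeq2 1.42.0 on recovered reads, DESeq2 size factors, library size only, a replicate block and leaving out each fish. On the recovered reads the 2 edgeR tests called 1563 and 1609 genes in liver and 398 and 473 in testis at the study's limits. Each test was checked on simulated data. Names came from the study's list, for 1436 genes, and no sequence or coordinate is given because none of the tables used pairs these identifiers with one.

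The members, lists and named genes were chosen with earlier results of these data known. The named genes are the 3 genes, relatives fixed by role, and for each gene the 3 named genes with the highest Pearson r of deviations from group means, with a mean of at least 1 in each tissue. One of the relatives is not reported here and was left out of its list.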

Additional observations from a re-analysis of the deposited data

Results flagged for a closer look

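For 6 of the 29 genes checked, every BaP liver lay on one side of the control mean and every BaP testis on the other. Of the 29, spag1a was not listed in testis. The liver log2 difference minus that of testis was 2.24 for mdh1b, 1.83 for unc93a and 2.04 for antxr2b, which were chosen for this. It was 1.30 for mdh1ab, 1.10 for zgc:103511 and −1.64 for kcnk1b. The share of all genes with this arrangement was not counted, and the difference between the tissues was not tested.

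In 6 groups of 4 livers 1 fish stood apart from the other 3, with a gap to the nearest above Dixon's 95% critical share of the group's range, as chance gives in about 1 in 20 groups. The check covered 29 genes and 5 marker lists, each in the control and in the BaP livers. Over so many groups some such gaps arise by chance. The BaP livers had me1 at 2.16 against 6.21 to 6.82 normalized CPM (0.869 of the range), morn3 at 1.45 against 0.139 to 0.27 (0.900), ttll5 at 2.34 against 0.83 to 1.08 (0.832) and zdhhc4 at 10.3 against 7.66 to 8.09 (0.839). The other 3 morn3 values were close to the level of 3 reads, 0.0833 to 0.27 in the BaP livers. The control livers had ift172 at 26.4 against 5.86 to 8.74 (0.860) and si:ch211-127i16.2 at 57.2 against 7.75 to 14.2 (0.869).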

How the results depend on the processing

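All 90 values of mdh1b, unc93a and antxr2b under the alternatives kept their direction. The genes were chosen for that direction in the same libraries, so neither this nor the calls below test it. The 3 genes met the study's limits in liver in each of 16 alternative fits and in testis in 0 of 14. At an adjusted p under 0.05, mdh1b was called in liver in 5 of these 16 fits, unc93a in 3 and antxr2b in 2. The exact test and DESeq2, which called 67 and 172 liver genes higher at that level, called all 3 genes. The call of mdh1b was lost with a pseudocount of 0.1, the quasi-likelihood test, library size only, the block and 7 of 8 fits without 1 fish, and without control replicate 3 mdh1b and unc93a were called. The liver difference of mdh1b, 1.74, was 2.42 with a pseudocount of 0.1, 2.40 with the quasi-likelihood test, 2.41 with the exact test and 2.40 with DESeq2, which add less to its low control level. Leaving out 1 fish gave 1.57 to 1.91 for mdh1b, 1.25 to 1.47 for unc93a and 1.15 to 1.47 for antxr2b in liver, and −0.72 to −0.29, −0.64 to −0.18 and −0.96 to −0.38 in testis.

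Counts over all genes moved more. The 9 liver genes at an adjusted p under 0.05 were 0 with a pseudocount of 0.1, 5 by the quasi-likelihood test, 224 by the exact test, 443 by DESeq2 and 0 to 216 with 1 fish left out. The 1 testis gene was 0 with a pseudocount of 0.1, 0 by the quasi-likelihood test, 29 by the exact test, 54 by DESeq2, 0 with library size only and 0 in every fit without 1 fish. At the study's limits, leaving out 1 fish gave 1116 to 2370 liver genes against 1548, the highest without control replicate 3, and 282 to 829 testis genes against 369, with 829 without BaP replicate 3 and 784 without control replicate 1. Library size alone as the scaling moved the median of all liver genes to −0.16 and left 20.7% of liver calls higher against 49.4%, and 65.0% against 54.2% in testis. The testis share was 28.6% without control replicate 1, 38.8% without BaP replicate 3 and 68.8% without control replicate 3. With library size alone the 3 genes were at 1.61, 1.21 and 1.12 in liver and −0.43, −0.40 and −0.67 in testis. Likeness kept its sign for all 9 genes, and the lowest r, 0.46, was that of APOB without testis BaP replicate 2.

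With a replicate block the adjusted calls were 2 in liver and 0 in testis and the calls at the study's limits 1690 and 589. The block left the differences of the 3 genes as they were, but raised the SE of all 3 in liver. That of mdh1b went from 0.24 to 0.27, which ended its adjusted call. In testis the SE of mdh1b rose from 0.29 to 0.32, while that of unc93a fell from 0.30 to 0.17 and that of antxr2b from 0.37 to 0.34. Same-numbered control and BaP fish had correlated deviations of −0.02 to 0.20 in liver and −0.08 to 0.37 in testis, not above 0.1 in every pair, and not every fish correlated best with its own number.

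Depth limits mdh1b in control liver and unc93a in testis, each on fewer than 100 reads a library, and 3 testes a group limit all testis values. It also limits mdh1b in BaP liver replicates 1 and 3, on 84 and 62 reads, and antxr2b in BaP testis replicate 1, on 62. Control liver means of cyp1b1 and spag1a were close to the level of 3 reads.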

Other observations

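In the order of genes on the RefSeq assembly O_niloticus_UMD_NMBU, matched by symbol alone, mdh1b lies between retreg2 and fastkd2, and unc93a between ncoa1 and afdna, while antxr2b matched no entry. The genes 2 places away that have a name in the study's list are prkag3a beside mdh1b and TDRD15 beside unc93a, and these were looked up after the values of the 3 genes had been seen. TDRD15, a Tudor domain gene of germ cells and one of the testis markers above, was 6.39 ± 5.08 normalized CPM in control livers and 18.6 ± 7.59 in BaP livers (SD, n = 4 each). Its log2 difference was 1.66 (SE 0.55), with an adjusted p of 0.263 in the limma fit and overlapping groups. In testis it was 141 ± 47.6 and 136 ± 18.0 (SD, n = 3 each), at 0.01 (SE 0.31). The kinase subunit gene prkag3a was 8.77 ± 6.04 in control and 4.42 ± 1.31 in BaP livers (SD, n = 4 each), at −0.69 (SE 0.39), and at −0.24 (SE 0.41) in testis. It therefore did not share the liver direction of mdh1b, and neither of its differences passed the study's limits.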
